A study of Homo sapiens with 12 samples.

Results

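The genes examined here encode the parts with which a keratinocyte holds on to its basement membrane. They were 9 genes, matched by gene name among the 29657 genes listed for SCC15 cells and the 31055 listed for SCC25 cells. LAMA3 and LAMB3 are chains of laminin-332. COL17A1, ITGA6 and ITGB4 span the membrane in the hemidesmosome, and ITGA3, ITGA2, ITGB1 and ITGAV are further integrin subunits. All 9 were present in both tables and passed the filter of a mean of at least 10 normalized counts.

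Laminin-332 is a trimer that holds the chains encoded by LAMA3 and LAMB3, which basal epithelial cells secrete into the basement membrane. The hemidesmosome grips it from the cell side: the integrin α6β4 and the transmembrane collagen XVII bind laminin outside the cell, and plectin and the dystonin isoform BP230 tie them to keratin filaments inside. Integrins work only as pairs of an α and a β chain, so that β1 is shared by many partners (α3β1 binds laminins and α2β1 binds collagens), while β4 pairs only with α6. In squamous carcinoma, laminin-332 is known for its deposition at the invasive front.

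SCC15 and SCC25 are established lines of human oral squamous cell carcinoma, both labelled wild type for genotype. RNA-seq libraries were made from each line after 24 h with DMSO, the solvent control, (called untreated below) or with the treatment labelled ACGs (annonaceous acetogenins), which the study's methods give as squamocin at 10 µg/mL. There were 4 groups of 3 libraries, 12 in all, with 16665563 to 22748845 reads counted per library. Each line is 1 line only, and no label says that the libraries of a group came from separate cultures, so that the p-values measure the spread between these libraries, which may be technical.

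Values are normalized counts, reads per gene divided by the size factor of the library. In RNA from whole cultures, fewer cells of a kind and less RNA per cell cannot be told apart. Each change was tested with limma on log2(normalized count + 1), which slightly understates the change of low genes, and was called where the adjusted p (Benjamini-Hochberg, over all genes tested in that cell line) was below 0.05. The choice of scaling carries weight in these data. With equal library totals in place of the deposited size factors, the median log2 change of all genes moved by -0.49 (SCC15) and -0.21 (SCC25). The calls over all genes then went from 4921 higher and 4773 lower to 2357 and 8032 in SCC15, and from 6335 higher and 6367 lower to 5032 and 7839 in SCC25. One library stood apart: the counts of SCC15 squamocin replicate 3 differed from those of its group's other libraries by a chi-square of 63.5 and 71.6 per degree of freedom, against 1.72 to 11.0 in the other 10 pairs of one group. The share of reads from the mitochondrial genome was lower with squamocin, at 0.796% to 0.959% against 1.69% to 1.73% in SCC15 and at 2.45% to 3.5% against 4.37% to 4.54% in SCC25. The part of these differences in the results was not tested.

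Markers of squamous epithelium were checked against the label of oral squamous cells. All 10 had a mean of at least 10 normalized counts in untreated SCC25, but 8 of 10 did in untreated SCC15. There KRT5, a keratin of the basal layer and an anchor of hemidesmosomes, had a mean of 9.5 and DSG3 one of 1.44. TP63 and EPCAM passed narrowly in untreated SCC15, with means of 17.5 and 11.4 against 4512 and 2942 in untreated SCC25. With squamocin, 7 of 10 markers passed in SCC15. The summed level of the 10 markers was higher with squamocin in both lines, at 221032 to 380288 against 120832 to 127109 in SCC15 and at 65963 to 67444 against 35393 to 35647 in SCC25. In SCC15 that sum was mostly 1 gene, the keratin KRT17, with means of 112298 untreated and 260258 treated, while KRT6A, TP63, CDH1 and EPCAM were not called, and in SCC25 KRT5 and CDH1 were lower. Marker sums of other cell types were small but moved as well. In SCC25 the leukocyte sum went from 331 to 420 untreated to 19.1 to 31.1 treated (CD14 from a mean of 351 to 4.81), the endothelial sum from 243 to 304 to 19.8 to 41.1, the muscle sum from 88.5 to 110.4 to 20.3 to 30.2 and the fibroblast sum from 774 to 814 to 1075 to 1228. In SCC15 the fibroblast sum went from 721 to 795 to 487 to 490.1, the endothelial sum from 164 to 183 to 68.4 to 78.7, the leukocyte sum from 507 to 551 to 320 to 501 and the muscle sum from 29.7 to 40.3 to 5.7 to 11.6. The part of these shifts in the results was not tested.

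Untreated, the lines differed most in the hemidesmosome. Levels are given here as RPKM, reads per kb of exon scaled to the total reads of the library, to allow for unlike gene lengths. The lines were not tested against each other because their tables were normalized separately. COL17A1 had a mean of 1.85 ± 0.015 (SD, n = 3) in untreated SCC15 and of 99.7 ± 1.08 in untreated SCC25, a ratio of 53.9. ITGB4 had 2.05 ± 0.25 in SCC15 and 99.98 ± 1.53 in SCC25, a ratio of 48.8. ITGA6, the partner of β4, was far closer, with 25.4 ± 0.95 and 41.5 ± 0.53. Thus SCC15 held α6 transcript with little β4 transcript beside it, whereas β4 outnumbered α6 in SCC25.

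LAMB3 had the highest level per length of the 9 genes in each of the 4 groups, with 268 ± 6.49 in untreated SCC15 and 197 ± 3.02 in untreated SCC25. LAMA3, whose chain joins that of LAMB3 in the same trimer, was among the lowest, with 2.05 ± 0.063 and 9.04 ± 0.38. In SCC15 the order below LAMB3 was ITGB1 (78.0), ITGA3 (53.3), ITGA6 (25.4), ITGA2 (24.7), ITGAV (15.7), LAMA3 (2.05), ITGB4 (2.05) and COL17A1 (1.85), all as mean RPKM of the DMSO libraries. Neighbours whose ranges overlapped were ITGA6 with ITGA2, LAMA3 with ITGB4 and ITGB4 with COL17A1. In SCC25 the order was ITGA3 (156), ITGB4 (99.98), COL17A1 (99.7), ITGA6 (41.5), ITGA2 (25.9), ITGB1 (22.0), ITGAV (13.5) and LAMA3 (9.04) on the same scale, and only ITGB4 and COL17A1 overlapped. ITGB1 was the member most in favour of SCC15, at 3.55 times its level in SCC25. These orders rest on the length used, the union of annotated exons, of 4647 bases for LAMB3, 14488 for LAMA3, 14561 for ITGB1 and 19336 for ITGAV. Where the transcripts in use are shorter than that union, the level is understated. A shorter transcript of LAMA3 is annotated, so that its low place in these orders is not secure. In normalized counts, which are not divided by length, LAMB3 had a mean of 19300 and ITGB1 of 17614 in untreated SCC15.

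**Figure D1:**
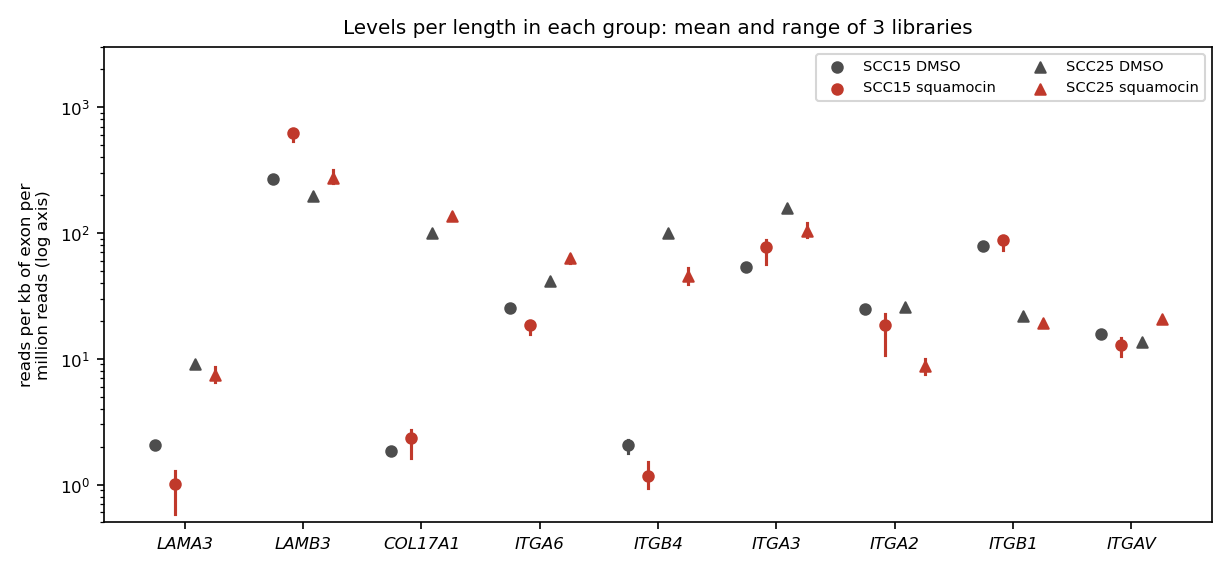
Levels of the 9 genes in RPKM (reads per kb of exon, scaled to library totals; log axis), with points for the mean and lines for the range of the 3 libraries of each group (circles SCC15, triangles SCC25, grey DMSO, red squamocin). LAMB3 is highest in each group, and COL17A1 and ITGB4 lie near 2 in SCC15 and near 100 in SCC25 without treatment. Because each library is scaled to its own total, this plot shows ITGA6, ITGA2 and ITGAV of SCC15 and ITGB1 of SCC25 lower with squamocin. The means of their normalized counts are not lower.

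Of the 9 genes, 4 were higher with squamocin, 1 was lower and 4 did not pass the test in SCC15, where 61.0% of all genes tested were called (30.9% higher and 30.0% lower). In SCC25, 4 were higher, 3 were lower and 2 did not pass, where 76.8% of all genes were called (38.3% higher and 38.5% lower). Under equal library totals 2 members rose and 3 fell in SCC15, while 4 rose and 5 fell in SCC25. Without SCC15 squamocin replicate 3, 6 rose and 1 fell in that line, where the calls over all genes were then 6103 higher and 5920 lower. Their median change was 0.20 in SCC15 and 0.01 in SCC25, beside 0.01 and -0.01 over all genes tested on the same log2 scale. The ranges of treated and untreated libraries lay apart for 6 of 9 genes in SCC15 and 7 of 9 in SCC25, against 70.6% and 79.0% of all genes. Being called was thus about as frequent among the 9 genes as among all genes. LAMB3 and COL17A1 were higher in both lines, none was lower in both and ITGA3 had opposite calls, while 22.1%, 18.6% and 10.1% of the 14454 genes tested in both lines did so. The change differed between the lines for 7 of 9 genes (5 more negative and 2 more positive in SCC25), beside 52.2% of all genes (26.1% and 26.0%). Under equal library totals, 4 members were more negative and 3 more positive in SCC25. The split over all genes was then 2396 more negative and 5452 more positive, against 3779 and 3761 with the deposited size factors.

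Squamocin changed the laminin-332 genes unequally. LAMB3 rose in both lines, and more in SCC15. LAMA3 fell in SCC15 and was not called in SCC25.

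To show the regulatory sequence next to the start sites of these chains, the 250 bases before the annotated start are given for LAMA3 and for one of the 3 LAMB3 starts, 5′ to 3′ on the gene's strand, from the RefSeq promoter table on GRCh38.p14. They were chosen because they alone among the windows of the members hold the AP-1 motif TGANTCA, shown in capitals. Both lie inside the gene as the deposited table draws it, at the starts of shorter transcripts.
LAMA3, chr18:23872770-23873019, plus strand: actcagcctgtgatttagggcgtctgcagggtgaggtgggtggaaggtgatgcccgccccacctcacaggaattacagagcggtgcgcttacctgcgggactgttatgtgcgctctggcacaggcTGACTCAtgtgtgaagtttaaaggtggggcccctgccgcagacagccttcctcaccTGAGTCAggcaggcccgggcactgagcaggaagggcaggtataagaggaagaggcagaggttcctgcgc
LAMB3, chr1:209651375-209651624, minus strand: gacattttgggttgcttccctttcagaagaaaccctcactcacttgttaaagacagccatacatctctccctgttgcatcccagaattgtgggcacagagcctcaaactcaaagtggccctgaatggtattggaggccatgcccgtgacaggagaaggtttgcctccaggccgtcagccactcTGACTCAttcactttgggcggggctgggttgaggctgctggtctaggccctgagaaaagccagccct
The LAMA3 window holds the motif at bases 125 to 119 and 69 to 63 before the start, and the LAMB3 window at bases 67 to 61. Windows were found for 7 of the 9 genes, 12 windows in all. The letters TGANTCA, read on both strands, occur in 6.57% of the 35116 windows of this length in the table. The E-box CACGTG, bound by MYC and its relatives, was found in 1 of the 2 ITGA6 windows and in no other window of the members, against 6.34% of all windows. TGATGNAA, a core of the site of CHOP and ATF4, was in none of the 12, against 3.14%. A match is only a run of letters, and its absence says nothing about binding. The gene counts do not separate the transcripts of LAMA3 or LAMB3, so that the start in use in these cells is unknown.

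LAMB3 (chr1:209614870-209652466) had 19647, 18805 and 19449 normalized counts in the SCC15 DMSO libraries and 63734, 64692 and 61041 in the squamocin libraries. In SCC25 it had 16538, 16980 and 16597 with DMSO and 25782, 24710 and 30513 with squamocin. Treated and untreated libraries lay well apart in both lines. The change was 1.71 ± 0.11 (log2 ± SE; limma adjusted p = 3.3e-05), or 3.27-fold between the means, in SCC15 and 0.69 ± 0.063 (limma adjusted p = 5.8e-07), or 1.62-fold, in SCC25. The difference between the changes, SCC25 minus SCC15, was -1.02 ± 0.13 (limma adjusted p = 3.2e-05).

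LAMA3 (chr18:23689443-23956222) had 475, 448 and 461 normalized counts in the SCC15 DMSO libraries and 377, 348 and 208 with squamocin. The treated libraries lay below all untreated ones, with replicate 3, the library that stands apart, lowest. The change of -0.61 ± 0.21 passed the test narrowly (limma adjusted p = 0.0387) and was -1.11 with equal library totals. It was -0.35 without that library, still called, and the call was lost when any 1 of the 3 DMSO libraries was left out (limma adjusted p = 0.0888 to 0.107). In SCC25 LAMA3 had 2285, 2455 and 2445 with DMSO and 2229, 2018 and 2611 with squamocin, overlapping groups with a change of -0.07 ± 0.077 (limma adjusted p = 0.39). With equal library totals that change was -0.28 and was called. The 2 changes did not differ past the threshold (0.54 ± 0.25, limma adjusted p = 0.0816). They did differ with equal library totals (0.83, limma adjusted p = 0.0397), without SCC15 squamocin replicate 1 (0.70, limma adjusted p = 0.0201) and without replicate 3 (0.27, limma adjusted p = 0.0344).

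The balance of LAMA3 and LAMB3 moved, which can be read without any scaling from ratios within a library. Such a ratio does not remove an effect of gene length, and the exon unions differ (14488 bases for LAMA3, 4647 for LAMB3). Whether length had a part in the change was not tested. LAMA3 over LAMB3 went from 0.0237 to 0.0242 with DMSO to 0.0034 to 0.00591 with squamocin in SCC15, a log2 change of -2.33 ± 0.25. The lowest treated ratio was that of replicate 3, the library that stands apart, and leaving out 1 library gave changes of -2.48 to -2.08. In SCC25 LAMA3 over LAMB3 went from 0.138 to 0.147 to 0.0817 to 0.0865, a log2 change of -0.76 ± 0.037. Treated and untreated libraries did not overlap in either line. An exact two-sided permutation test of 3 against 3 cannot go below p = 0.1, which this ratio reached in both lines (adjusted over the 6 ratios of a line, 0.12 in SCC15 and 0.1 in SCC25).

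**Figure D2:**
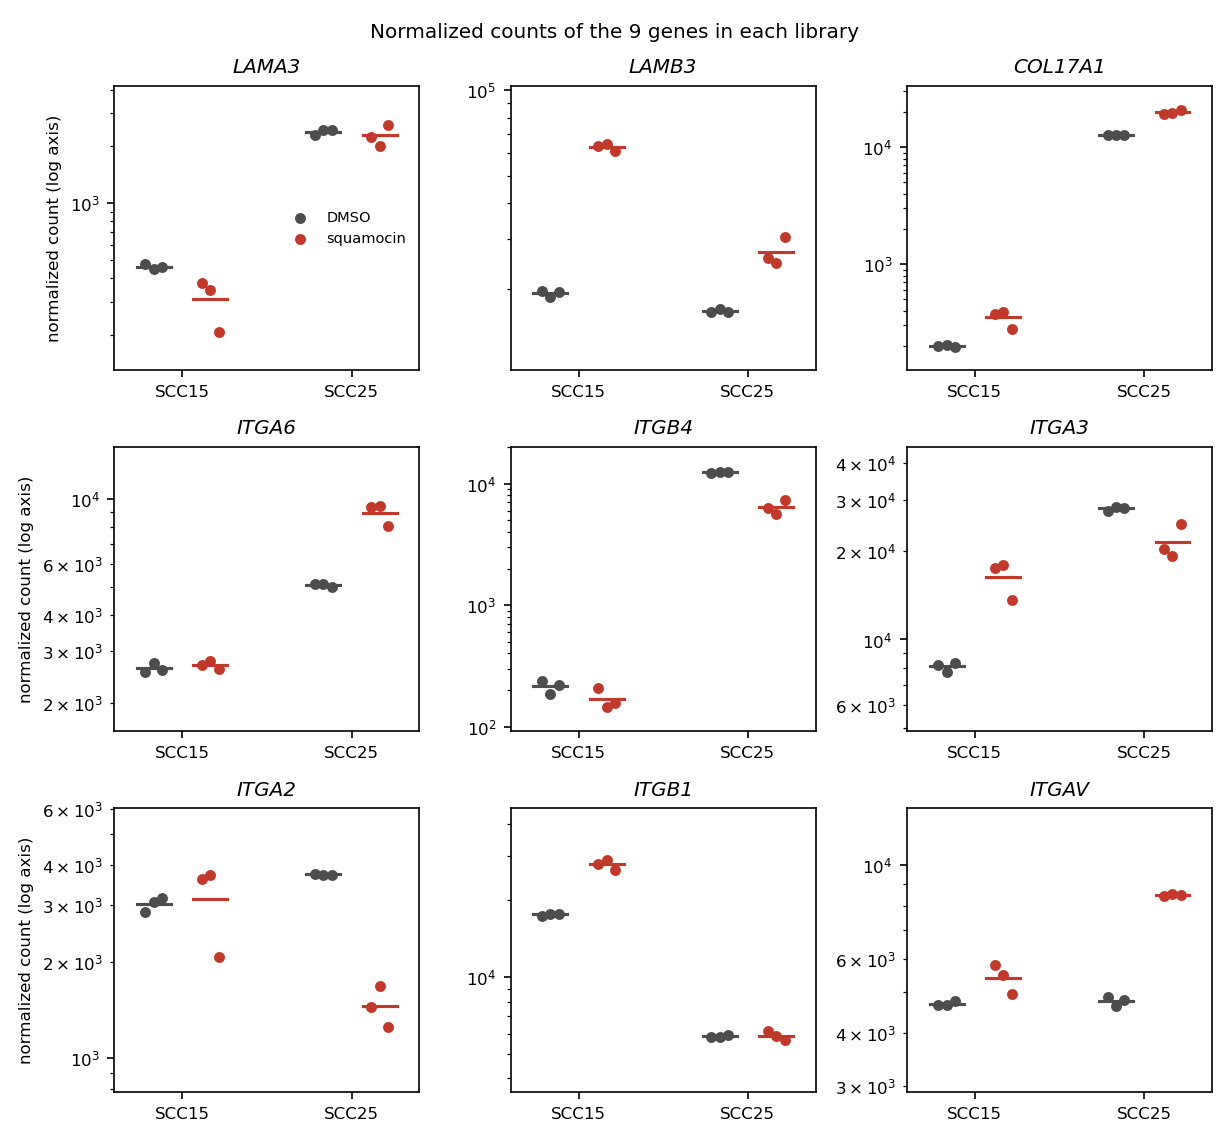
Normalized counts of the 9 genes (log axes, own range in each panel), with a point for each library and a line at the group mean (grey DMSO, red squamocin). LAMB3 and COL17A1 are higher with squamocin in both lines, ITGA3 moves in opposite directions, and the lowest treated SCC15 point is replicate 3 for 8 of the 9 genes, all but ITGB4.

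Within the hemidesmosome, COL17A1 rose in both lines, whereas ITGA6 rose and ITGB4 fell in SCC25 and neither was called in SCC15. COL17A1 (chr10:104031286-104085957) encodes collagen XVII, also known as BP180. It had 200, 202 and 198 normalized counts in the SCC15 DMSO libraries and 378, 393 and 281 with squamocin, a change of 0.79 ± 0.14 (limma adjusted p = 0.0026). In SCC25 it had 12609, 12810 and 12783 with DMSO and 19369, 19649 and 20841 with squamocin, a change of 0.65 ± 0.038 (limma adjusted p = 8.5e-09). The groups did not overlap in either line, and the 2 changes differed by -0.14 ± 0.14, which did not pass the test (limma adjusted p = 0.433) and was 0.15 with equal library totals. In SCC15 the rise was 0.29 and was not called with equal library totals (limma adjusted p = 0.223). Without SCC15 squamocin replicate 3 the changes differed by -0.29 (limma adjusted p = 0.00038).

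ITGA6 (chr2:172427354-172506282), the α6 subunit, had 2548, 2742 and 2589 normalized counts with DMSO and 2697, 2776 and 2599 with squamocin in SCC15. These groups overlapped, and the change of 0.04 ± 0.079 was not called (limma adjusted p = 0.719); with equal library totals it turned to -0.46 and was called (limma adjusted p = 0.0077). In SCC25 the counts went from 5103, 5109 and 4979 to 9343, 9413 and 8082, without overlap, a change of 0.82 ± 0.054 (limma adjusted p = 2.5e-08). The lines differed by 0.78 ± 0.10 (limma adjusted p = 4.0e-05).

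ITGB4 (chr17:75721328-75757818), the β4 subunit with the long cytoplasmic tail that binds plectin, had 12183, 12509 and 12383 normalized counts in the SCC25 DMSO libraries and 6313, 5666 and 7396 with squamocin. The treated libraries held 0.52 times the untreated mean, a change of -0.94 ± 0.073 (limma adjusted p = 1.1e-07). In SCC15 it had 238, 187 and 220 with DMSO and 209, 146 and 156 with squamocin, overlapping groups with a change of -0.35 ± 0.17 (limma adjusted p = 0.113). That change was -0.84 and called with equal library totals, and -0.50 and called without squamocin replicate 1 (limma adjusted p = 0.0261). The changes differed by -0.60 ± 0.19 (limma adjusted p = 0.0184), a call lost with equal library totals (-0.31), without SCC15 DMSO replicate 2 (-0.50) and without SCC25 squamocin replicate 2 (-0.51). GALK1, the galactokinase gene, overlaps ITGB4 on the opposite strand, and the sources used here do not say that reads were counted by strand, so that reads of the shared stretch cannot be told apart. Its mean over the libraries was 654 normalized counts in SCC15, 340% of that of ITGB4, and 350 in SCC25, or 3.72%. GALK1 rose by 0.61 ± 0.16 in SCC15 (limma adjusted p = 0.0131) and fell by 0.95 on the log2 scale in SCC25 (limma adjusted p = 2.6e-07).

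The ratio of ITGA6 to ITGB4 within a library was 0.402 to 0.419 in untreated SCC25 and 1.09 to 1.66 with squamocin, a log2 change of 1.76 ± 0.18 with exact permutation p = 0.1. Per length, mean ITGA6 went from 41.5 to 63.4 RPKM and mean ITGB4 from 99.98 to 45.3 RPKM in that line, so that their order turned. In SCC15 the ratio was 10.7 to 14.7 with DMSO and 12.9 to 19.02 with squamocin, which overlapped (0.38 ± 0.21, exact permutation p = 0.2).

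**Figure D3:**
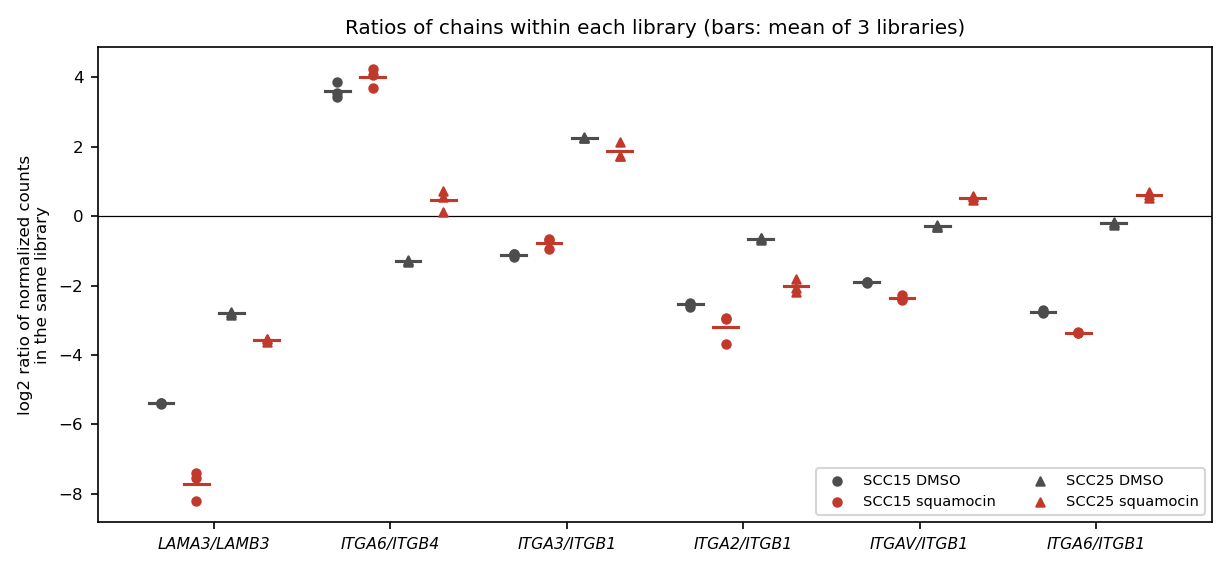
Ratios of normalized counts of 2 chains within each library, on the log2 scale, with a point for each library and a bar at the group mean (circles SCC15, triangles SCC25, grey DMSO, red squamocin). LAMA3/LAMB3 is lower with squamocin in both lines, ITGA6/ITGB4 crosses 0 in SCC25, and the ratios of ITGA6 and ITGAV to ITGB1 move down in SCC15 and up in SCC25.

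Plectin, PLEC, which links β4 to keratin, changed by 0.05 ± 0.27 in SCC15 and 0.12 ± 0.11 in SCC25, neither called (limma adjusted p = 0.88 and 0.303). Its sign turned with equal library totals, to -0.45 and -0.08, and without SCC15 squamocin replicate 3 it was 0.39 and called. DST, the gene of dystonin whose epithelial isoform is BP230, had 2286, 2371 and 2430 normalized counts with DMSO and 2036, 2065 and 1109 with squamocin in SCC15, a change of -0.50 ± 0.23 (limma adjusted p = 0.0931) that was -0.20 and called without replicate 3 and -0.997 and called with equal library totals. In SCC25 it rose by 0.46 ± 0.042 (limma adjusted p = 5.8e-07), or by 0.25 with equal library totals. CD151, a tetraspanin that binds α3β1 and α6β4, rose by 1.15 ± 0.16 in SCC15 (limma adjusted p = 0.00079; 0.65 with equal library totals) and changed by 0.08 ± 0.042 in SCC25 (limma adjusted p = 0.0848), where equal library totals gave -0.12, called. ERBIN, an adaptor that binds β4 and BP230, fell by 0.72 on the log2 scale in SCC15 and rose by 0.73 in SCC25 (limma adjusted p = 0.00036 and 2.7e-07). KRT14, a basal keratin with close relatives in the genome that may share its reads, rose by 0.89 ± 0.18 and 1.06 ± 0.082 (limma adjusted p = 0.0041 and 1.0e-07). KRT5 was too low in SCC15 to test and fell by 0.25 on the log2 scale in SCC25 (limma adjusted p = 0.0017).

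Among the other integrin subunits, ITGA3 moved in opposite directions in the 2 lines, ITGB1 rose in SCC15, ITGA2 fell in SCC25 and ITGAV rose in SCC25. ITGA3 (chr17:50055968-50090481), the α3 chain of the laminin receptor α3β1, had 8206, 7775 and 8311 normalized counts with DMSO and 17542, 17961 and 13587 with squamocin in SCC15. In SCC25 it had 27492, 28326 and 28185 with DMSO and 20351, 19334 and 24770 with squamocin. Every treated library was above the untreated ones in SCC15 and below them in SCC25. The changes were 1.00 ± 0.13 (limma adjusted p = 0.00055) and -0.39 ± 0.071 (limma adjusted p = 0.00028), and they differed by -1.39 ± 0.16 (limma adjusted p = 1.8e-05). Both were still called with equal library totals, at 0.51 (limma adjusted p = 0.0362) and -0.60.

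ITGB1 (chr10:32900319-33005792), the shared β1 chain, had 17435, 17685 and 17721 normalized counts with DMSO and 27900, 28830 and 26405 with squamocin in SCC15, without overlap. The change was 0.65 ± 0.10 (limma adjusted p = 0.0012), but 0.15 and not called with equal library totals (limma adjusted p = 0.268). In SCC25 it had 5824, 5794 and 5924 with DMSO and 6121, 5861 and 5636 with squamocin, overlapping groups with a change of 0.01 ± 0.041 (limma adjusted p = 0.907) that turned to -0.20, called, with equal library totals. The changes differed by -0.65 ± 0.096 (limma adjusted p = 0.00011), or by -0.36 with equal library totals.

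ITGA2 (chr5:52989326-53094779), the α2 chain of the collagen receptor, had 3765, 3737 and 3714 normalized counts with DMSO and 1445, 1682 and 1252 with squamocin in SCC25. The treated libraries held 0.39 times the untreated mean, a change of -1.37 ± 0.081 (limma adjusted p = 8.6e-09), the furthest below 0 of the 9 genes in either line. In SCC15 ITGA2 had 2848, 3076 and 3160 with DMSO and 3628, 3715 and 2073 with squamocin. Squamocin replicates 1 and 2 lay above the untreated libraries and replicate 3 below them, and the change of 0.00 ± 0.22 was not called (limma adjusted p = 0.987). It was 0.28 and called without replicate 3 (limma adjusted p = 2.7e-05), and -0.49 and not called with equal library totals. The lines differed by -1.37 ± 0.25 (limma adjusted p = 0.00059).

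ITGAV (chr2:186590065-186680901), the αV chain of receptors for fibronectin, vitronectin and latent TGF-β, had 4869, 4639 and 4787 normalized counts with DMSO and 8455, 8520 and 8496 with squamocin in SCC25. The change was 0.83 ± 0.037 (limma adjusted p = 6.0e-10). In SCC15 the counts went from 4655, 4662 and 4781 to 5788, 5494 and 4961, without overlap, but the change of 0.20 ± 0.091 was not called (limma adjusted p = 0.0888). It was 0.26 and called without squamocin replicate 3, and -0.30 with equal library totals. The lines differed by 0.63 ± 0.096 (limma adjusted p = 0.00014).

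Set against ITGB1 in the same library, the log2 ratio of ITGA3 changed by 0.35 ± 0.10 in SCC15 and by -0.40 ± 0.14 in SCC25. ITGAV over ITGB1 changed by -0.45 ± 0.046 in SCC15 and by 0.83 ± 0.041 in SCC25, and ITGA6 over ITGB1 by -0.62 ± 0.030 and 0.81 ± 0.052. ITGA2 over ITGB1 went down in both lines, by -0.65 ± 0.24 and -1.37 ± 0.11, the first being -0.41 without SCC15 squamocin replicate 3. Treated and untreated libraries did not overlap in any of these 8 comparisons, each with exact permutation p = 0.1, the smallest that 3 against 3 allows (adjusted 0.12 in SCC15 and 0.1 in SCC25).

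**Figure D4:**
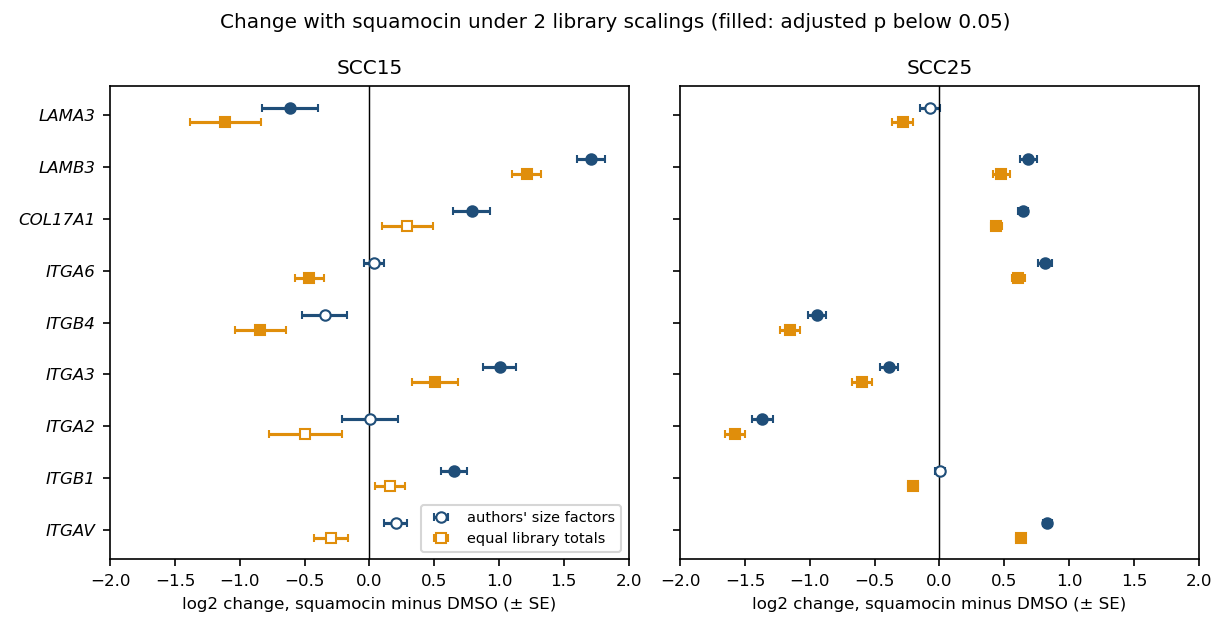
Change with squamocin on the log2 scale (squamocin minus DMSO ± SE) of the 9 genes in SCC15 and SCC25, with the deposited size factors (blue circles) and with equal library totals (orange squares), where filled symbols have a limma adjusted p below 0.05. LAMB3 is right of 0 under both scalings in both lines, and ITGA6, ITGA2 and ITGAV of SCC15 change sign between the scalings.

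Genes around these 9 were followed through 8 lists of 126 genes. Of the 6 hemidesmosome and laminin-332 partners described above, 2 were higher and 1 lower of 5 tested in SCC15, and 3 were higher and 1 lower of 6 in SCC25 (medians 0.05 and 0.29). With equal library totals the SCC15 median was -0.45, with 2 higher and 2 lower. Of the other laminin chains, 6 were tested in each line. In SCC15, 1 was higher and none lower (median 0.10), or none higher and 1 lower under equal library totals (median -0.40), and in SCC25 5 were lower and none higher (median -0.93). In SCC25, LAMB1 fell by 1.46 and LAMA5 by 0.75 on the log2 scale (limma adjusted p = 1.3e-11 and 1.1e-05), while LAMB3 rose. Among other integrin subunits, 4 were higher and 1 lower of 11 tested in SCC15, and 5 were higher and 5 lower of 11 in SCC25 (medians 0.02 and 0.19). Scaled to equal library totals, none were higher and 4 lower in SCC15 (median -0.44), and 3 were higher and 5 lower in SCC25 (median -0.02). ITGB5, a β chain that pairs with αV, rose by 0.53 ± 0.086 and 0.60 ± 0.055, but with equal library totals only the second was called. ITGB2, the leukocyte integrin chain, rose by 0.49 ± 0.12 in SCC15, a call lost with equal library totals, and fell by 2.94 on the log2 scale in SCC25 (limma adjusted p = 0.011 and 5.3e-10).

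The ligands and the enzymes that finish laminins and collagens were counted in the same way. Of other basement membrane proteins and integrin ligands, 1 was higher and 2 lower of 14 tested in SCC15 (median 0.12), which became 1 and 6 with equal library totals (median -0.38), and 2 were higher and 10 lower of 15 in SCC25 (median -0.74). TGFBI, a secreted ligand of integrins, rose by 1.15 ± 0.089 in SCC15 and fell by 2.71 on the log2 scale in SCC25 (limma adjusted p = 6.3e-05 and 1.2e-12). Of the processing genes, 9 were higher and 1 lower of 12 in SCC15, and 1 was higher and 9 lower of 13 in SCC25 (medians 0.75 and -0.18), where 5 of the 12 tested in both had opposite calls. PLOD1, a collagen lysyl hydroxylase, went from a mean of 5982 to 10204 normalized counts in SCC15 and from 2506 to 866 in SCC25. With equal library totals the SCC15 counts of these processing genes were 6 higher and 2 lower, and PLOD1 was not called there. The SCC25 counts were then 0 higher and 10 lower.

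Of non-integrin laminin receptors and tetraspanins, 8 were higher and 1 lower of 11 in SCC15, and 6 were higher and 4 lower of 12 in SCC25 (medians 0.55 and 0.08). Scaling to equal library totals gave 4 higher and 2 lower in SCC15 (median 0.06), and 4 higher and 6 lower in SCC25 (median -0.12). CD9, a tetraspanin partner of β1 integrins, rose by 0.79 ± 0.16 and 0.90 ± 0.039, and with equal library totals by 0.29 (limma adjusted p = 0.0437) and 0.69. DAG1, the laminin receptor dystroglycan, fell by 0.55 and 1.34 on the log2 scale. The list of integrin activators and focal adhesion genes had 9 higher and 7 lower of 32 in SCC15 and 9 higher and 15 lower of 32 in SCC25 (medians 0.00 and -0.13). Under equal library totals it had 2 higher and 17 lower in SCC15 (median -0.50), where the median over all genes tested was -0.48. The tensins, which bind the tails of β integrins, were lower where called in both lines: TNS3 fell by 1.70 and 3.00 and TNS4 by 0.80 and 2.23 on the log2 scale (limma adjusted p = 2.1e-05, 2.5e-14, 0.00031 and 1.3e-11). Of integrin trafficking genes, 4 were higher and 1 lower of 11 in SCC15 (median 0.13), which became 1 and 5 with equal library totals, and 9 were higher and 3 lower of 12 in SCC25 (median 0.50). RAB21, a small GTPase that binds integrin α chains on endosomes, rose by 0.69 ± 0.11 in SCC15, a call lost with equal library totals, and by 1.65 ± 0.050 in SCC25 (limma adjusted p = 0.0011 and 2.3e-11).

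Genes with a pattern most like that of a member were sought by Pearson's r over the 12 libraries, after the mean of each cell line was taken off the log2 values, among 9698 protein-coding genes with a mean of at least 100 in both tables. For LAMB3 they were AARS, AKAP17A and COPG1 (r of 0.998, 0.997 and 0.997), for ITGB1 they were ENO2, IRAK1 and EIF2D (0.987 each), and for ITGB4 they were WDR19, MICALL2 and TDRD7 (0.969, 0.963 and 0.962). These values describe libraries that share lines, treatment and scaling.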

How the data were processed

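Each deposited table held, for 1 cell line, a value per gene and library. The authors aligned reads to GRCh38/hg38 with HISAT2 2.0.5 and counted them per gene with featureCounts 1.5.0-p3, and the deposited values are a signal: read counts divided by a size factor per library, whatever the column names say. Dividing each library by the value of 1 read gave whole reads for 100% of values (tolerance 0.001). Columns of the authors' group means, fold changes and p-values were not used.

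Log2(value + 1) was tested with limma 3.58.1 (R 4.3.3; trend in eBayes) on genes with a mean of at least 10, per cell line and, for the difference of the changes, over the 14454 genes tested in both. edgeR 4.0.16 and DESeq2 1.42.0 were run on the recovered reads as alternatives, beside other pseudocounts (0.1 and 10), filters, TMM factors, equal library totals, a replicate block and each library left out. The calls over all genes, higher and lower, were 4712 and 5168 (SCC15) and 6298 and 6506 (SCC25) with edgeR, and 5067 and 4897 (SCC15) and 6093 and 6103 (SCC25) with DESeq2. Levels per length used the union of exons in GENCODE 44. Ratios were tested with exact permutation tests (SciPy 1.17.1). Fits were also run on simulated counts in which few genes changed. That simulation held neither a shift of scaling nor a library that stands apart, and no conclusion is drawn from it here. The member genes, lists, motifs and tests were chosen with earlier results of these data known. Beside the 9 genes and PLEC, DST and CD151, the rule named up to 4 genes per list called in the same direction in both lines with the largest mean change and 1 with opposite calls, of which part is printed. KRT5, LAMB1, LAMA5 and GALK1 were named after their values were seen. Some items are not reported here. Promoter windows of ITGB4 and ITGA3 were not used here.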

Additional observations from a re-analysis of the deposited data

Results flagged for a closer look

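The change with squamocin differed between the cell lines for 7 of the 9 genes, beside 52.2% of all genes tested in both. The values are from limma's contrast of the 2 changes (SCC25 minus SCC15, on the log2 scale). The contrast was -1.02 for LAMB3, 0.78 for ITGA6, -0.60 for ITGB4, -1.39 for ITGA3, -1.37 for ITGA2, -0.65 for ITGB1 and 0.63 for ITGAV. Of the partners that were followed, DST (0.96) and CD151 (-1.07) also differed. With equal library totals the contrast of ITGB4 was -0.31 and no longer passed the test.

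Of the listed genes with opposite calls in the 2 lines, the widest contrast of each list was 1.45 for ERBIN, -3.43 for ITGB2, -3.86 for TGFBI, -2.30 for PLOD1, -1.89 for CD82, -1.29 for SHARPIN and 1.04 for DAB2. CD82 is a tetraspanin, SHARPIN an inhibitor of integrin activation and DAB2 an endocytic adaptor. The SCC15 calls of ITGB2, PLOD1, CD82 and SHARPIN were lost with equal library totals, and those of ERBIN, TGFBI and DAB2 were not. ITGB2, TGFBI, PLOD1, CD82 and SHARPIN were lower with squamocin in SCC25 under both scalings.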

How the results depend on the processing

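Pseudocounts of 0.1 and 10 and both other filters changed no direction and no call of the 9 genes or the 3 partners. The scaling mattered most. With equal library totals, 2 members were higher and 3 lower in SCC15 and 5 were lower in SCC25, over all genes 2357 were higher and 8032 lower in SCC15, and 2396 changes were more negative in SCC25. That scaling turned the sign of ITGA6 (-0.46), ITGA2 (-0.49), ITGAV (-0.30) and PLEC (-0.45) in SCC15, of ITGB1 (-0.20), PLEC (-0.084) and CD151 (-0.12) in SCC25, and of the difference for COL17A1 (0.15). By construction it lowered the changes of a line by a like amount, and more in SCC15. Changes near 0 also turned with TMM factors (ITGA6 -0.0081 and ITGA2 -0.039 in SCC15, ITGB1 -0.00013 in SCC25), with edgeR (ITGA6 -0.033, ITGA2 -0.0074, ITGB1 -0.012) and with DESeq2 (ITGB1 -0.0016), none of them called.

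Leaving out 1 library gave 0 to 2 members lower in SCC15: 2 without squamocin replicate 1, and 0 without DMSO replicate 1, 2 or 3, where LAMA3 lost its call. Over all genes tested in SCC15, 3693 to 5920 were then lower, against 4773 with all libraries. The same fits gave ITGA2 -0.14 to 0.28 and PLEC -0.13 to 0.39 in SCC15, LAMA3 -0.17 to 0.012, ITGB1 -0.025 to 0.035 and PLEC -0.041 to 0.25 in SCC25, and -0.27 to 0.25 for the difference in PLEC. Without SCC25 squamocin replicate 3, LAMA3 was called in SCC25 at -0.17. The other causes were not tested.

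Libraries of the same replicate number did not deviate together (correlations of -0.051 to 0.0078). No pairing was thus seen, and no label says whether the numbers mark pairs. With the replicate number as a block the calls over all genes in SCC15 were 4665 higher and 4451 lower, and no call of a member changed. The lowest member had 125 reads in a library.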
